A study of Mus musculus with 12 samples.

Results

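The genes described here encode the kinases and adaptors that sit just below the B cell receptor: Syk, the Src-family kinases Lyn, Blk and Fyn, their inhibitory kinase Csk, the adaptors Blnk and Pik3ap1, and the effectors Plcg2 and Prkcb. A peak belonged to one of these 9 genes when the protein-coding RefSeq gene span nearest to its midpoint, within 50 kb, was that gene. This rule used position only and gave 193 of the 68689 peaks of the count table. There were 23 at Syk, 25 at Lyn, 13 at Blk, 24 at Fyn, 11 at Csk, 14 at Blnk, 31 at Pik3ap1, 20 at Plcg2 and 32 at Prkcb. No midpoint lay in more than 1 gene span. Of the 193 peaks, 132 lay within a gene, 19 within 1 kb of a gene's start or end (gene-end peaks) and 42 between genes.

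The study mapped open chromatin in mouse germinal center B cells, which proliferate after antigen contact, diversify their antibody genes and compete for survival. In Omni-ATAC-seq the transposase Tn5 cuts accessible DNA and tags the cut ends for sequencing. All 12 libraries were made from spleen cells, the mice being C57BL/6 and 8 to 10 weeks old. They formed 4 groups of 3, namely HOMO CB, HOMO CC, WT CB and WT CC. HOMO libraries were from Pbrm1-/- mice and WT libraries from Pbrm1+/+ mice. Pbrm1 encodes a subunit particular to PBAF, one of the SWI/SNF complexes that move nucleosomes. The sources used here do not give how the allele was made or in which cells it is lost, and they do not explain the prefix Pbrm1AID of the count columns. CB and CC are the labels' names for the 2 populations, and the labels do not spell them out. Whether the libraries are from separate mice is not in the labels either, so p-values speak only to the spread among these libraries, part of which may be technical.

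Antigen binding to the B cell receptor lets Lyn, Blk and Fyn phosphorylate the signalling tails of its Cd79a and Cd79b chains, and Syk docks on the phosphorylated tails. Csk restrains this step by phosphorylating the inhibitory tyrosine in the tail of Src-family kinases. Syk then phosphorylates Blnk, a scaffold that brings in Btk and Plcg2, and Plcg2 cleaves a membrane lipid into the messengers that release calcium and activate protein kinase C beta, the product of Prkcb. Pik3ap1, also called BCAP, recruits phosphoinositide 3-kinase. Signalling through the receptor is known to be damped in germinal center B cells. Accessibility is not transcription, and no RNA or protein level was measured here.

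Promoter windows of 4 of the genes are shown. Each lies whole inside a peak, whose values are given here or with the results, and peaks beside 3 of these windows changed. They are read 5′ to 3′ on the gene's strand from RefSeq (GRCm38.p6), with matches to the searched motifs in capitals: the octamer ATGCAAAT, the EBF word CCCNNGGGA and the E protein boxes CAGCTG and CAGGTG, on both strands.
Prkcb, plus strand, chr7:122288875-122289174: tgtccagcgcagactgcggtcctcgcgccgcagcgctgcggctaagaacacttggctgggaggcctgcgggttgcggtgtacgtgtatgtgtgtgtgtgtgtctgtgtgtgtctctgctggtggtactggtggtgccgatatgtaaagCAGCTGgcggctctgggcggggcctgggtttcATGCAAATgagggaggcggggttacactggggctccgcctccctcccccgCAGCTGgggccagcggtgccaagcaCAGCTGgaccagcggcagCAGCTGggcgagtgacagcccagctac
Blnk, minus strand, chr19:40994172-40994471: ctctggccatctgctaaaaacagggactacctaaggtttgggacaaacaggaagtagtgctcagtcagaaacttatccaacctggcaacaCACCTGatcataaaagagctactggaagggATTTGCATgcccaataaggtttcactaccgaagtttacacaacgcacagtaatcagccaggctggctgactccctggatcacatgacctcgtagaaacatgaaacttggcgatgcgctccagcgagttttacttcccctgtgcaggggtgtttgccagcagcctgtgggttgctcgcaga
Fyn, plus strand, chr10:39369549-39369848: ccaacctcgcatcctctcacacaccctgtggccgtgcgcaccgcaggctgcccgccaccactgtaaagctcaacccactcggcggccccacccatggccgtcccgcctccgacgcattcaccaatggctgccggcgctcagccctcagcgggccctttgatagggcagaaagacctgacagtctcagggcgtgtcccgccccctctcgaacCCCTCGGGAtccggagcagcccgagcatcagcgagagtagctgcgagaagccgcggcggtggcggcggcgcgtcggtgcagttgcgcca
Syk, plus strand, chr13:52583187-52583486: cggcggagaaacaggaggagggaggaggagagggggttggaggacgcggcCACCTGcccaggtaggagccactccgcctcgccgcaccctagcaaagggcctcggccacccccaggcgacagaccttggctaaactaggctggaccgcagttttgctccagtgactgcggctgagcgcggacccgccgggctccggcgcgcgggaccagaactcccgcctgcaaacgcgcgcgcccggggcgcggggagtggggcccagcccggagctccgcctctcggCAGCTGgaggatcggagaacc
The Prkcb window held 1 octamer, 70 bases before the annotated start, and 4 CAGCTG boxes. The Blnk window held the octamer on the opposite strand, as its reverse complement, 130 bases before the start. The peak over it held 54.4, 56.1 and 58.5 CPM in HOMO CB and 55.3, 55.3 and 60.1 CPM in WT CB, then 48.1, 56.7 and 58.5 CPM in HOMO CC and 45.8, 46.9 and 52.5 CPM in WT CC. HOMO and WT overlapped there in both populations. The octamer is the word that Oct1, Oct2 and their B cell coactivator bind. The table searched gave 9 windows for 7 of the genes, with 2 windows each for Csk and Syk and none used for Lyn and Blk. Of all 32851 RefSeq promoter windows of this length, 1.74% held the octamer, and 2 of these 9 did. The EBF word stood 39 bases before the Fyn start and was present in 6.56% of all windows and in 1 of the 9. CAGCTG was in 3 of the 9 windows and 16.3% of all, and CAGGTG in 6 of the 9 and 20.2% of all. No match overlapped another. The windows of Plcg2 and Pik3ap1 and the other Syk window also lay whole inside a peak and are not shown. Every octamer and EBF match was in a window shown, so those 4 are not a neutral sample of the 9. The other words searched were CCGGAAGT (ETS), GAGGAAGT (PU.1), GAAANNGAA (ISRE), TGANTCA (AP-1), TGTGGTT (Runx) and GGAANTTCC (NF-kB). They were in 3.89%, 3.2%, 8.56%, 7.81%, 5.27% and 0.928% of all windows in that order, and in 0 of the 9. A match describes letters and not a bound site.

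The deepest library, HOMO CB 3, held 45590454 counts and the shallowest, HOMO CC 1, 6431354, which is 7.09-fold apart, and the 193 peaks together took 0.332% to 0.375% of a library. Levels are given as CPM, a peak's counts scaled to a fixed library total, with TMM factors of 0.954 to 1.05. Markers of the labelled cell type were open. The 66 peaks of 8 germinal center B cell genes averaged 21.2 CPM per peak and the 51 peaks of 6 pan B cell genes 26.0, while the T cell list had peaks at 6 of its 10 genes (12.4 CPM per peak) and none at Cd3g, Cd8a, Lck or Cd28. The myeloid list averaged 7.4 CPM per peak with none at Lyz2, Elane or Mpo, and the natural killer list 9.63 with none at Nkg7 or Gzma. The erythroid, plasma cell and naive B cell lists averaged 16.8, 15.0 and 13.6. Both WT libraries numbered 2 stood apart at a peak of Xist, with 0.458 CPM in WT CB 2 and 0.782 in WT CC 2, against 4.73 to 17.2 in the other 10 libraries. At another Xist peak WT CB 2 had 3.89 CPM and WT CC 2 5.06, against 4.88 to 9.39 in those 10. There WT CC 2 did not stand apart. The 2 HOMO libraries numbered 1 were the shallowest. Counts of calls are therefore given with and without these pairs. The peak at the end of Pbrm1 was open in all 12 libraries (24.5 to 39.5 CPM), which does not check the deletion.

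All 9 genes had accessible chromatin in all 4 groups. Per peak of 501 bp, and averaged over the 12 libraries, Csk was highest at 31.9 CPM. It was followed by Blnk (24.8), Pik3ap1 (23.1), Blk (22.4), Plcg2 (21.2), Syk (19.1), Lyn (15.7), Fyn (13.0) and Prkcb (12.3). Over the 12 libraries the ranges of neighbours in this order overlapped, except that Lyn lay above Fyn throughout. The group means kept this order except in HOMO CB, where Prkcb (13.3 CPM per peak) stood above Fyn (12.4). In WT CC, Csk had 27.0, Blnk 22.4, Pik3ap1 22.2 and Blk 21.6 CPM per peak. The single strongest peak lay 10786 bp before the Syk start, at chr13:52572401-52572901. It held 93.5, 92.5 and 89.2 CPM in HOMO CB and 75.5, 84.1 and 84.7 in WT CB, then 78.5, 87.6 and 95.1 in HOMO CC and 79.6, 72.5 and 87.9 in WT CC. The HOMO CB libraries lay above the WT CB libraries there, the CC groups overlapped, and neither difference passed the test (adjusted p = 0.305 in CB and 0.512 in CC). For Fyn, Lyn, Blk, Plcg2 and Prkcb the strongest peak was at a gene end. For Blnk and Pik3ap1 it was intergenic, 1877 and 5879 bp before the start. For Csk it was inside the gene, and the peak at its outer annotated start was weak, with group ranges of 6.7 to 9.95 CPM in HOMO CB and 10.2 to 12.9 in WT CB, then 5.99 to 7.69 in HOMO CC and 6.44 to 9.63 in WT CC.

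**Figure D1:**
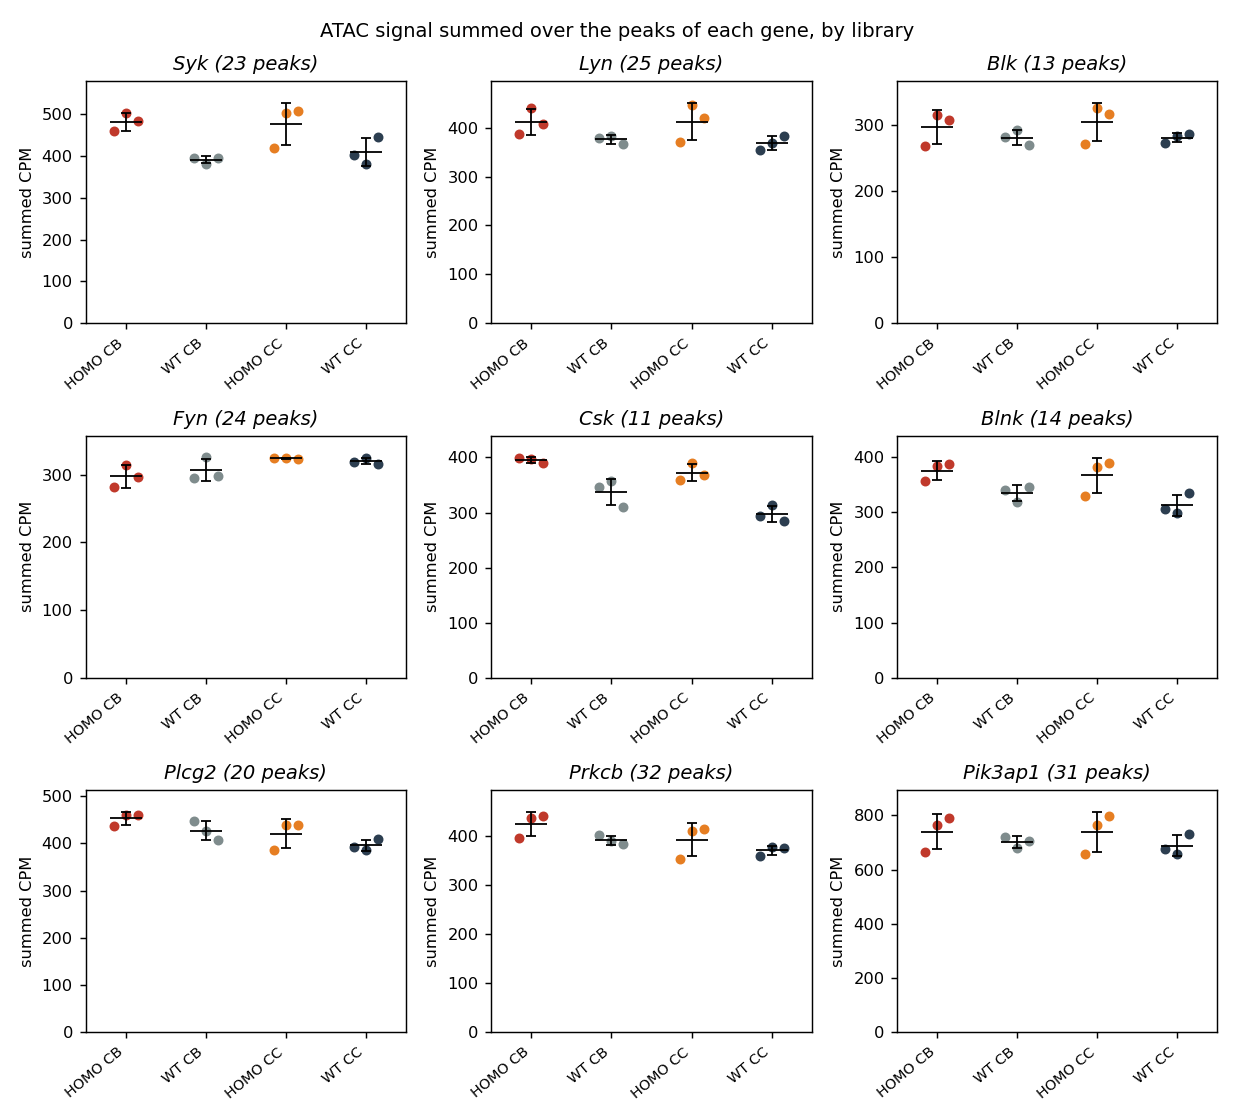
Summed CPM over all peaks of each gene (vertical axis, from 0) in the 4 groups, with a point per library and bars for mean ± SD (n = 3). At Csk every HOMO library lies above every WT library of the same population, and at Syk, Lyn and Blnk this is so in CB.

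The first question was how the loss of Pbrm1 altered these regions in CB. Of the 193 peaks 4 were more accessible in HOMO CB than in WT CB and 1 was less accessible, at an adjusted p under 0.05 over all peaks with edgeR's quasi-likelihood test. Of all 68689 peaks, 0.779% were called higher and 3.85% lower. The calls were single sites at Csk, Lyn, Prkcb, Syk and Fyn, and none was at Blk, Blnk, Pik3ap1 or Plcg2. The median log2 fold change of the 193 peaks was 0.07, with 123 above 0 (63.7%), against 0.01 and 51.0% over all peaks. The 2 sets differ in make-up, since 19 of the 193 but 16106 of all 68689 peaks were at gene ends. At gene-end peaks the median was 0.03, against -0.11 over all gene-end peaks. At the other peaks it was 0.08, against 0.05 over all such peaks. An unadjusted p under 0.05 was found at 26 of the 193 (13.5%), against 19.7% of all peaks. In bulk libraries a larger share of cells open at a site and a more open site in each cell cannot be told apart.

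Among the Src-family kinases, Lyn gained at an intergenic peak outside the gene span, on its lower-coordinate side (chr4:3647487-3647987). It held 33.3, 37.9 and 32.8 CPM in HOMO CB, against 23.7, 26.9 and 26.1 CPM in WT CB (log2 fold change 0.44, SE 0.11, edgeR adjusted p = 0.0195). The 2 groups did not overlap. The peak just inside the end of the Lyn span, its strongest, differed by 0.03 (adjusted p = 0.905). Fyn went the other way at the gene-end peak 500 bp past its start (chr10:39370049-39370549), the only one of the 193 called lower. It held 21.3, 23.4 and 21.5 CPM in HOMO CB, against 28.5, 29.3 and 36.6 CPM in WT CB (log2 fold change -0.51, SE 0.12, adjusted p = 0.018). The neighbouring peak that holds the Fyn promoter window printed above was stronger and did not pass the test, at 71.1 to 86.1 CPM in HOMO CB and 74.2 to 89.3 CPM in WT CB (-0.06, adjusted p = 0.782). Over all gene-end peaks of a level like that of the called Fyn peak the median was -0.15. An intergenic Fyn peak 29847 bp before the start rose and missed the threshold (0.49, SE 0.15, adjusted p = 0.0634). It held 21.7, 18.8 and 17.1 CPM in HOMO CB, against 14.0, 15.2 and 11.9 CPM in WT CB. In CC it differed by 0.46 (adjusted p = 0.0919). Fyn was also the only gene of the 9 with a negative median over its peaks in CB, -0.11, with 6 of 24 above 0. Blk had 10 of 13 peaks above 0, between -0.32 and 0.44, and none called.

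Csk, the kinase that holds Src-family kinases inactive, gained at 1 peak inside the gene. The peak at chr9:57638564-57639064 lies 6839 bp past the inner of its 2 annotated starts. It held 69.8, 69.7 and 69.6 CPM in HOMO CB, against 54.3, 55.7 and 50.6 CPM in WT CB (log2 fold change 0.38, SE 0.08, adjusted p = 0.0127). All 3 HOMO values stood above all 3 WT values. Its neighbour at chr9:57637835-57638335 showed 68.1, 64.1 and 65.4 CPM in HOMO CB against 55.9, 57.7 and 55.2 CPM in WT CB, and missed the threshold (0.23, adjusted p = 0.126). The weak peak at the outer start had a fold change of the opposite sign and larger size, at 9.95, 6.7 and 7.02 CPM in HOMO CB against 12.9, 12.4 and 10.2 CPM in WT CB, and missed the threshold (-0.63, SE 0.19, adjusted p = 0.063). Summed over its 11 peaks, Csk had 399, 397 and 390.0 CPM in HOMO CB, against 346, 356.5 and 311 CPM in WT CB (0.23, SE 0.06, adjusted p = 0.0385 over 14267 genes).

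Syk, the kinase that relays the receptor signal, was the other gene whose summed signal rose in CB. It had 459, 501.5 and 483 CPM in HOMO CB, against 395.5, 381 and 395.0 CPM in WT CB (0.30, SE 0.08, adjusted p = 0.026). The groups did not overlap. Among all genes with peaks, 2.42% were called higher and 4.64% lower on summed counts in CB. At Syk 19 of 23 peaks had a fold change above 0, with a median of 0.28. The 1 called peak ended shortly before the promoter window shown, at chr13:52582469-52582969. It held 37.3, 37.1 and 37.7 CPM in HOMO CB, against 30.1, 27.0 and 26.2 CPM in WT CB (0.43, SE 0.11, adjusted p = 0.0268). The peak over the Syk window itself held 41.0, 47.2 and 43.8 CPM in HOMO CB and 35.8, 29.7 and 40.7 CPM in WT CB, apart but not past the test (0.31, adjusted p = 0.146).

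No peak or sum of the adaptors passed the test in CB. Blnk summed to 357, 384 and 387 CPM in HOMO CB, against 339.7, 318 and 345 CPM in WT CB (0.17, adjusted p = 0.152). Its 14 peaks ran from -0.07 to 0.51 with 12 above 0. Pik3ap1 summed to 667, 765 and 789 CPM in HOMO CB, which spanned the 722, 681 and 704 CPM of WT CB (0.08, adjusted p = 0.575). Of the effectors, Plcg2 differed by 0.09 on summed counts (adjusted p = 0.428) with 12 of 20 peaks above 0. Prkcb had 1 called peak, 26752 bp before its start (chr7:122262123-122262623). It held 8.64, 7.62 and 7.89 CPM in HOMO CB, against 4.93, 4.81 and 4.94 CPM in WT CB (0.70, SE 0.17, adjusted p = 0.0237), the largest called change by genotype among the 193. The peak over the Prkcb window was alike in level, at 50.2 to 55.1 CPM in HOMO CB and 45.0 to 54.6 CPM in WT CB (0.09, adjusted p = 0.658).

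None of the 5 calls in CB held when each library was left out in turn. The count was 0 without HOMO CB 2, 1 without HOMO CB 3 or WT CB 1, 2 without WT CB 3 and 3 without WT CB 2. With both HOMO libraries numbered 1 left out it was 8, when 7.14% of all peaks were called. With both WT libraries numbered 2 left out it was 3, when 2.42% were called, against 4.63% with all libraries. The share of all peaks called without each single library is not given, so those counts cannot be set against other peaks. The summed Syk call was lost without HOMO CB 2, HOMO CB 3, WT CB 1 or WT CB 2 (adjusted p = 0.0742 to 0.138), with fold changes of 0.27 to 0.31. The summed Csk call was lost without any of the CB libraries except WT CB 2, and without WT CC 1 or WT CC 2 (0.0535 to 0.146), with fold changes of 0.16 to 0.25. B cell markers moved with genotype too. The germinal center list summed to 1429.9 to 1624.5 CPM in HOMO CB and 1295 to 1371 in WT CB, and the pan B list to 1409 to 1463 CPM in HOMO CB and 1207 to 1305 in WT CB. Their part in the Syk and Csk results was not tested.

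**Figure D2:**
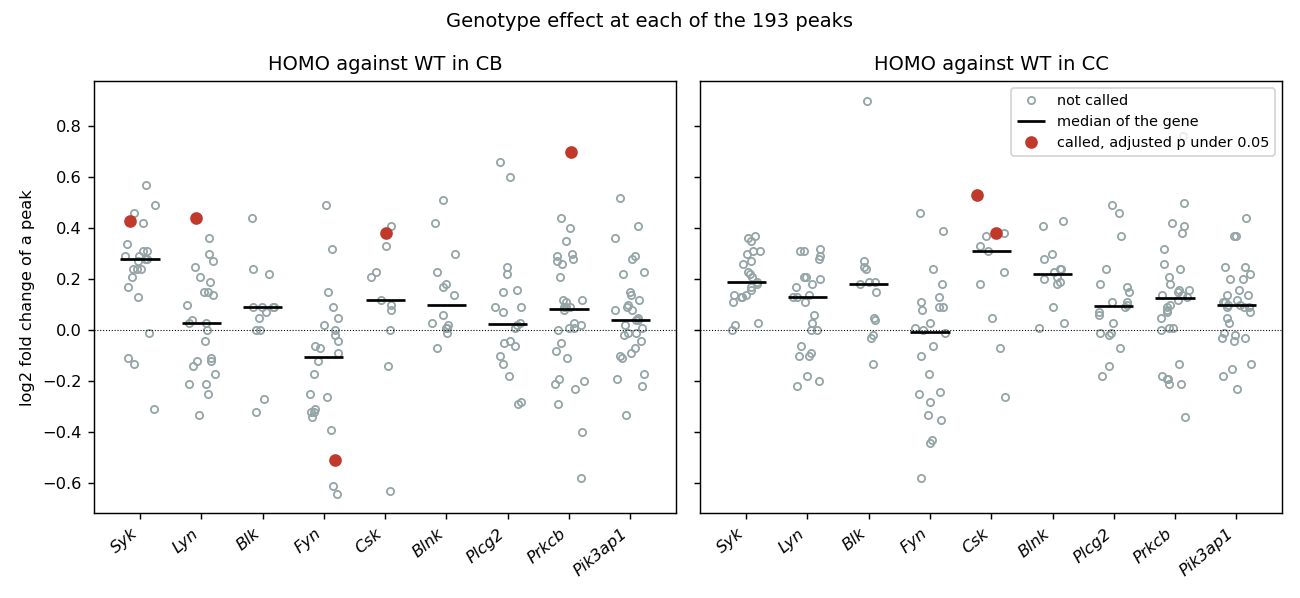
Log2 fold change of HOMO against WT (vertical axis) at each of the 193 peaks, by gene, in CB (left) and CC (right). Filled red points are peaks called at an adjusted p under 0.05 and black lines are gene medians. The 4 called higher and 1 called lower in CB belong to 5 genes, and both calls in CC are at Csk.

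The same comparison in CC gave 2 called peaks, both higher in HOMO CC and both at Csk. Over all peaks 0.578% were called higher and 2.17% lower. The median log2 fold change of the 193 was 0.13, with 144 above 0 (74.6%), against 0.02 and 53.7% over all peaks. By class it was 0.06 at gene-end peaks, against -0.07 over all of them. At the other peaks it was 0.13, against 0.06. An unadjusted p under 0.05 was found at 31 of them (16.1%), against 17.2% of all peaks.

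The Csk peak called in CB was called here as well. It held 62.3, 65.6 and 66.7 CPM in HOMO CC, against 45.3, 48.2 and 42.0 CPM in WT CC (0.53, SE 0.08, adjusted p = 0.00549). Nearest to the inner start of the called Csk sites was chr9:57640258-57640758, 5145 bp past it. It held 60.2, 66.8 and 66.6 CPM in HOMO CC, against 47.7, 51.5 and 50.3 CPM in WT CC (0.38, SE 0.09, adjusted p = 0.0233). At both sites the HOMO CC libraries lay above all WT CC libraries. The peak at the inner start showed 55.7, 72.9 and 72.2 CPM in HOMO CC and 48.0, 51.4 and 57.3 CPM in WT CC, which overlapped (0.37, adjusted p = 0.0758). Summed over 11 peaks, Csk had 359, 389.9 and 368 CPM in HOMO CC, against 294, 313 and 285.0 CPM in WT CC (0.33, SE 0.06, adjusted p = 0.0127), and it was the only one of the 9 genes called on summed counts. Among all genes 1.02% were called higher and 3.07% lower.

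**Figure D3:**
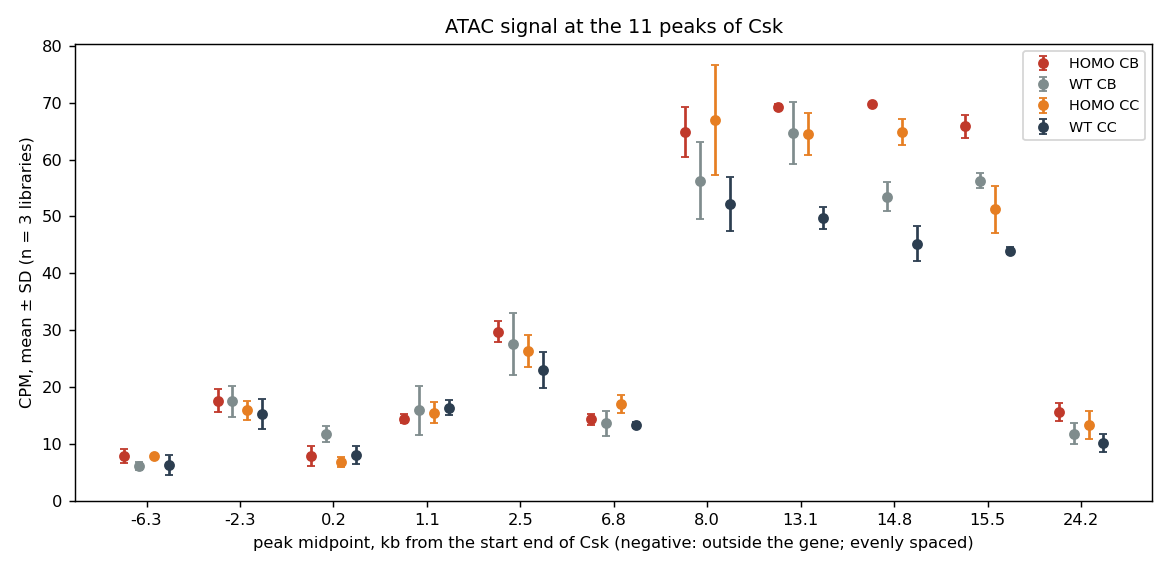
CPM at the 11 peaks of Csk (mean ± SD, n = 3 libraries per group), ordered by distance of the peak midpoint from the start end of the gene in kb, evenly spaced. Every HOMO library lay above every WT library of the same population at the strong peaks chr9:57637835-57638335 and chr9:57638564-57639064. At the strongest, chr9:57640258-57640758, this was so in CC and not in CB. At the peak by the inner start HOMO and WT overlapped in both populations. The weak peaks near the outer start and outside the gene overlap or differ by a few CPM.

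Next came Blnk, with 330, 382 and 389.6 CPM in HOMO CC, against 305, 299 and 335 CPM in WT CC (0.23, SE 0.07, adjusted p = 0.0685). All 14 of its peaks had a fold change above 0, between 0.01 and 0.43. Syk had 418.5, 501 and 508 CPM in HOMO CC, against 401, 379 and 445 CPM in WT CC (0.22, SE 0.08, adjusted p = 0.101), and HOMO CC 1 fell among the WT CC values. Without HOMO CC 1 both passed, Blnk at 0.29 (adjusted p = 0.0116) and Syk at 0.30 (0.0124). DESeq2 also called both with all libraries (0.0186 for Blnk and 0.046 for Syk). The summed fold changes of the other genes in CC were 0.16 for Lyn, 0.12 for Blk, 0.02 for Fyn, 0.10 for Pik3ap1, 0.09 for Plcg2 and 0.09 for Prkcb, and none passed the test. The peaks called in CB outside Csk had fold changes of the same sign in CC. They were 0.32 at Lyn (adjusted p = 0.105), 0.37 at Syk (0.0673), 0.32 at Prkcb (0.368) and -0.35 at Fyn (0.122).

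The first Csk peak lost its call in CC only without HOMO CC 2 (adjusted p = 0.0743), and the second was lost without HOMO CC 2, HOMO CC 3 or any WT CC library (0.0503 to 0.166). The count of calls was 7 without HOMO CC 1, 0 without HOMO CC 2 and 1 without HOMO CC 3 or any WT CC library. It was 9 with the HOMO pair numbered 1 left out, when 6.47% of all peaks were called. With the WT pair numbered 2 left out it was 1, when 0.473% were called, against 2.75% with all libraries. The share of all peaks called without each single library is again not given, so those counts cannot be set against other peaks. The summed Csk call was lost without HOMO CC 2 (0.103) and without WT CC 1 (0.0597), with fold changes of 0.29 and 0.32. The germinal center B list summed to 1381 to 1570.0 CPM in HOMO CC and 1237 to 1276 in WT CC. The pan B list gave 1304 to 1454 CPM in HOMO CC and 1188 to 1205 in WT CC. Their part in the Csk result was not tested.

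Whether the effect of genotype differed between CC and CB was tested directly as the difference of the 2 fold changes. It was called at 0 of the 193 peaks and at 0.0% of all peaks by edgeR, and DESeq2 also called 0 of the 193. At an unadjusted p under 0.05 there was 1 of the 193 (0.518%), against 1.18% of all peaks. On summed counts the difference ran from -0.08 at Syk (SE 0.11) to 0.10 at Csk (SE 0.09), and 0 of the 9 genes was called. The calls in CB and in CC are therefore not shown to differ between the populations.

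The other comparison was CC against CB within each genotype. In HOMO, 7 of the 193 peaks were higher in CC and 4 lower, against 4.78% of all peaks higher and 2.44% lower. In WT, 6 were higher and 5 lower, against 3.35% and 2.08% of all peaks. Of the 11 called in each genotype 7 were shared, 63.6% of each list. Over all peaks 2538 were shared, which is 51.2% of the HOMO list and 68.0% of the WT list. The shared peaks were 4 that rose in CC, at Blk, Lyn, Fyn and Syk, and 3 that fell, at Csk, Prkcb and Blnk. The median over the 193 was -0.02 in HOMO and -0.06 in WT, and over all peaks -0.0 and -0.03. At the 19 gene-end peaks the medians were -0.19 in HOMO and -0.17 in WT, against -0.05 and -0.09 over all gene-end peaks. An unadjusted p under 0.05 was found at 32 of the 193 in HOMO (16.6%, against 19.6% of all) and at 47 in WT (24.4%, against 19.9%).

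In HOMO the largest change lay inside Blk, and in WT the same peak came second to one of Lyn. Blk is a Src-family kinase largely confined to the B lineage. The Blk peak (chr14:63383283-63383783) held 10.5, 14.7 and 16.7 CPM in HOMO CC against 3.8, 3.96 and 5.13 CPM in HOMO CB, a log2 fold change of 1.70 (SE 0.21, adjusted p = 8.11e-05). In WT it held 9.7, 13.5 and 14.2 CPM in CC against 3.32, 3.66 and 5.14 CPM in CB (1.60, SE 0.22, adjusted p = 0.000297). CC exceeded CB in every library of both genotypes. The Blk peak at the gene end, its strongest, did not pass the test and leaned the other way, by -0.21 in HOMO (adjusted p = 0.222) and -0.19 in WT (0.299).

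Lyn had a weak peak inside the gene that behaved alike (chr4:3706459-3706959). It held 3.7, 3.65 and 3.7 CPM in HOMO CC against 0.917, 1.52 and 1.77 CPM in HOMO CB (1.28, SE 0.25, adjusted p = 0.00341). WT showed 3.88, 3.25 and 4.34 CPM in CC against 1.12, 1.26 and 1.19 CPM in CB (1.70, SE 0.27, adjusted p = 0.00105). Again no CC library overlapped a CB library. An intergenic Fyn peak, 48367 bp before the start (chr10:39321182-39321682), was of the same kind, with 3.99, 3.43 and 3.46 CPM in HOMO CC against 0.786, 1.9 and 1.79 CPM in HOMO CB (1.11, adjusted p = 0.0144). Its WT values were 5.12, 5.18 and 3.35 CPM in CC against 2.1, 1.95 and 2.35 CPM in CB (1.05, adjusted p = 0.0252). The shared Syk peak lay 7236 bp before the start (chr13:52575951-52576451), at 16.1, 20.5 and 22.5 CPM in HOMO CC against 10.6, 13.8 and 13.9 CPM in HOMO CB (0.62, adjusted p = 0.0191). WT had 18.7, 17.1 and 16.0 CPM in CC against 12.9, 9.39 and 9.45 CPM in CB (0.69, adjusted p = 0.0159).

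Of the 3 shared peaks that fell, the one inside Blnk moved most (chr19:40966629-40967129). It held 4.58, 6.03 and 6.0 CPM in HOMO CC against 14.8, 13.0 and 10.0 CPM in HOMO CB (-1.13, SE 0.19, adjusted p = 0.000882). WT had 4.73, 5.24 and 6.7 CPM in CC against 9.56, 9.28 and 8.95 CPM in CB (-0.71, SE 0.19, adjusted p = 0.0299). Every CC library lay below every CB library. At the Prkcb gene end, just past the promoter window shown (chr7:122289523-122290023), HOMO CC had 22.9, 23.8 and 24.9 CPM against 39.6, 31.7 and 31.8 CPM in HOMO CB (-0.50, adjusted p = 0.00653). WT CC had 29.7, 31.4 and 29.9 CPM against 43.3, 37.1 and 39.1 CPM in WT CB (-0.40, adjusted p = 0.0334). The Csk peak at chr9:57637835-57638335 had 46.6, 53.8 and 53.6 CPM in HOMO CC against 68.1, 64.1 and 65.4 CPM in HOMO CB (-0.35, adjusted p = 0.0134). It had 44.5, 44.2 and 43.2 CPM in WT CC against 55.9, 57.7 and 55.2 CPM in WT CB (-0.35, adjusted p = 0.0171). This site was thus lower in CC. Its neighbour called by genotype in both populations was not called between them without the block (-0.10, adjusted p = 0.573 in HOMO and -0.24, 0.0988 in WT). There too every CC library lay below every CB library of the same genotype. With the block the neighbour was called lower in WT CC (-0.25, adjusted p = 0.00365) and not in HOMO CC (-0.10, 0.294).

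**Figure D4:**
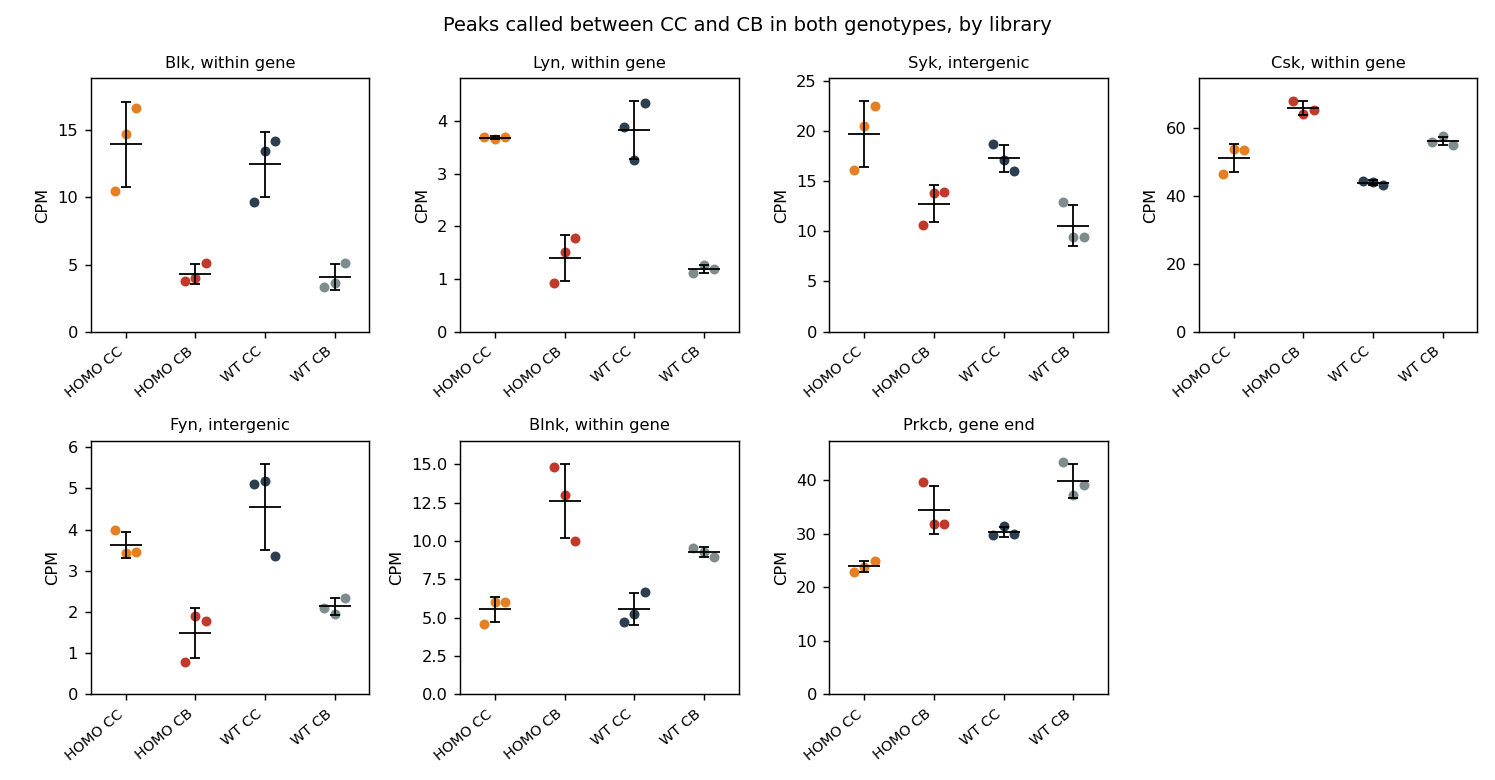
CPM by library (points) with mean ± SD (n = 3) at the 7 peaks called between CC and CB in both genotypes without the block, vertical axes from 0. At Blk, Lyn, Syk and Fyn the CC libraries lie above the CB libraries of the same genotype, and at Csk, Blnk and Prkcb below them.

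The remaining calls passed in 1 genotype each. In HOMO they were Syk peaks 9919 bp and 39433 bp past a start (0.69 and 1.13), a Prkcb peak 16644 bp before the start (1.14) and a Fyn peak 157889 bp past it (-0.93). In WT they were peaks inside Pik3ap1 (1.13), Blk (0.77), Prkcb (-0.64) and Csk (-0.37), the last being the site called by genotype in CC. Each had a fold change of the same sign in the other genotype, and the difference between genotypes passed the test at none of them. Plcg2 was the only gene with no called peak in any of these comparisons, but this held only without the pairing of libraries by number. A fit with a block for genotype and number called 1 of its 20 peaks higher and 3 lower in HOMO CC, and 7 lower in WT CC. Over all peaks that fit called 12.5% higher and 9.68% lower in HOMO CC, and 10.4% higher and 11.8% lower in WT CC. Its gene-end peak 530 bp past the start came closest, at 38.6, 40.1 and 38.9 CPM in HOMO CC against 49.6, 49.1 and 44.3 CPM in HOMO CB (-0.28, adjusted p = 0.0743, with the block 0.00275), and 31.2, 34.0 and 34.3 CPM in WT CC against 43.3, 39.1 and 40.1 CPM in WT CB (-0.30, adjusted p = 0.062, with the block 0.00164).

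**Figure D5:**
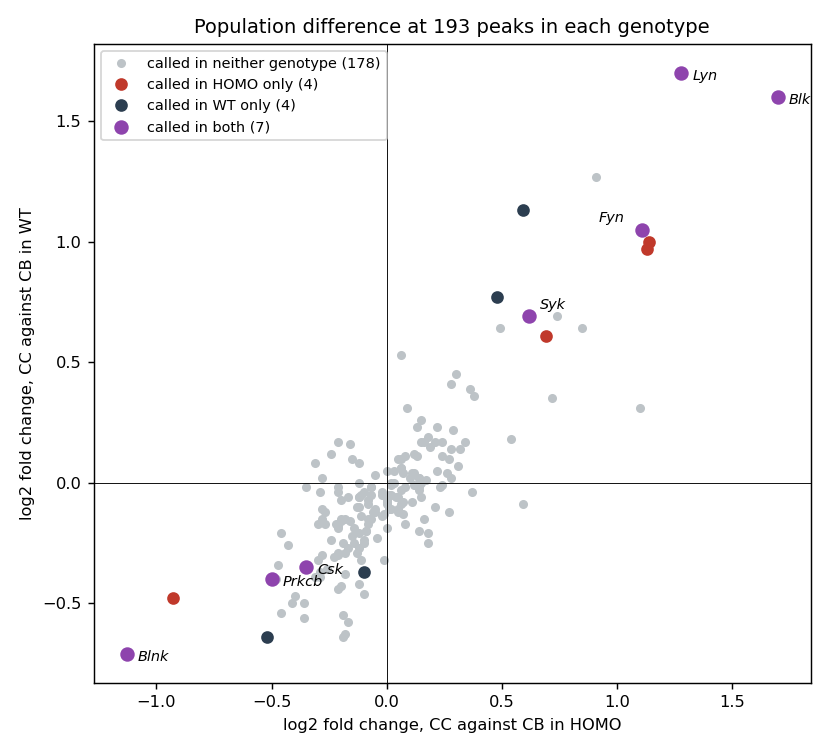
Log2 fold change of CC against CB in HOMO (horizontal axis) and in WT (vertical axis) at the 193 peaks. Purple points, with their gene, are the 7 called in both genotypes, red and dark blue points the 4 called in HOMO alone and the 4 in WT alone, and grey points the 178 called in neither. The calls are from the fit without the block.

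On summed counts 0 of the 9 genes was called between CC and CB, against 5.0% of all genes in HOMO and 3.81% in WT, although single peaks of Blk and Lyn differed over 2-fold. At an unadjusted p under 0.05 there was none in HOMO and only Csk in WT, whose fold change was -0.18 with edgeR (adjusted p = 0.126). Within a genotype, CB and CC libraries of the same number deviated together, and a fit with genotype and number as a block called more. With that replicate block 23 of the 193 peaks were higher and 20 lower in HOMO CC, against 12.5% and 9.68% of all peaks, and 15 were higher and 35 lower in WT CC, against 10.4% and 11.8%. The blocked fit of summed counts called Fyn higher (0.12, adjusted p = 0.0159) and Plcg2 and Prkcb lower (-0.10 and -0.11, adjusted p = 0.0441 and 0.024) in HOMO CC. It called Csk (-0.18, adjusted p = 0.000184) and Plcg2 (-0.10, 0.0422) lower in WT CC. Over all genes that fit called 22.1% in HOMO and 20.8% in WT.

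Without the block, the Blk and Lyn calls held in both genotypes under every left-out library, and so did the HOMO calls at Blnk, Csk and the Prkcb gene end. The count in HOMO was 5 without HOMO CC 2 and 7 without HOMO CB 1 or HOMO CB 3. The count in WT was 3 without WT CB 1, WT CB 2 or WT CC 1 and 4 without WT CC 2. With the HOMO pair numbered 1 left out the counts were 7 in HOMO (5.28% of all peaks called) and 19 in WT (7.31%). With the WT pair numbered 2 left out the WT count was 2 (0.767%). With all libraries 7.22% of all peaks were called in HOMO and 5.43% in WT. For single left-out libraries the share of all peaks called is not given, so those counts cannot be set against other peaks. T cell marker peaks moved with population, at 117 to 125 CPM in HOMO CC and 90.2 to 99.2 in HOMO CB, and at 124 to 129 CPM in WT CC and 100.2 to 107 in WT CB. The plasma cell list was lower in CC in both genotypes, at 463 to 499.6 CPM in HOMO CC and 503 to 553 in HOMO CB, and at 489.9 to 501 CPM in WT CC and 521.5 to 549.8 in WT CB. In HOMO the myeloid list did not overlap either, at 134 to 139.6 CPM in HOMO CC and 106 to 118 in HOMO CB. In WT the ranges given above for the germinal center and pan B lists lay lower in WT CC than in WT CB, and the erythroid list had 161 to 166 CPM in WT CC and 169.6 to 176 in WT CB. Their part in the population results was not tested.

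The summed signals of most of these genes varied together over the 12 libraries. Pearson's r, given as a description because libraries share group and depth, was 0.94 between Plcg2 and Prkcb and 0.90 between Syk and Blnk and between Lyn and Blk. Fyn was least like the others, with its highest r at 0.37 (Blk) and its lowest at -0.42 (Plcg2). Among genes on other chromosomes with 3 or more peaks, the closest to Syk was Pou2af1, the B cell coactivator of octamer factors (0.96), and the closest to Csk was Cd22, an inhibitory receptor of B cells (0.97). The closest to Lyn was Mef2c (0.98), to Blk Tmprss13 (0.94), to Fyn Rgs3 (0.90), to Blnk Myl10 (0.97), to Pik3ap1 Snx30 (0.97), to Plcg2 Taok3 (0.96) and to Prkcb Rnaseh2b (0.97).

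Other genes of the pathway were counted in 5 lists. Counts of genes are to be read against the 2.42% of all genes called higher and 4.64% lower on summed counts in HOMO CB. In HOMO CC these shares were 1.02% and 3.07%. Counts of peaks are to be read against 0.779% of all peaks called higher and 3.85% lower in HOMO CB, and 0.578% and 2.17% in HOMO CC. Of 10 receptor chains and coreceptors with a peak, 1 was called higher on summed counts in HOMO CB and 1 in HOMO CC, and 0 lower. These were Cd79b, the signalling chain that Lyn and Syk act on, at 0.23 in CB (adjusted p = 0.0451), and Cd22 at 0.37 in CC (0.0211). Of the 78 peaks of this list 0 were called higher and 1 lower in HOMO CB, and 2 higher and 1 lower in HOMO CC. Of 16 downstream effectors, 2 were called higher in HOMO CB and 1 in HOMO CC, and 0 lower. Rasgrp3, an activator of Ras that responds to diacylglycerol, was called in both populations at 0.31 (0.027) and 0.29 (0.0475), and Malt1, the protease that carries the signal to NF-kB, in CB at 0.25 (0.0279). Among the 265 effector peaks, 1 was called higher and 4 lower in HOMO CB, and 2 higher and 0 lower in HOMO CC. Their median log2 fold change was 0.04 in CB and 0.06 in CC. Of 6 inhibitory phosphatases 1 was called lower in each population, and of their 47 peaks 0 were higher and 2 lower in each. Inppl1, the lipid phosphatase SHIP2, had 22.0, 16.7 and 14.9 CPM in HOMO CB against 34.0, 29.2 and 28.5 CPM in WT CB (-0.82, SE 0.15, adjusted p = 0.00631). It had 22.1, 15.3 and 15.1 CPM in HOMO CC against 27.8, 33.3 and 31.4 CPM in WT CC (-0.87, SE 0.15, adjusted p = 0.00808). HOMO lay below WT in every library of both populations.

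Of 8 other Src, Syk and Tec family kinases with a peak, 1, Yes1, was called lower in HOMO CC (-0.57, adjusted p = 0.0474) and 0 in HOMO CB. Of their 72 peaks 1 was called higher in HOMO CC and 0 otherwise by genotype. Of 13 other adaptors, 0 was called by genotype in either population. Of their 188 peaks 1 was higher and 2 lower in HOMO CB, and 1 higher and 0 lower in HOMO CC. Over all peaks the shares were 0.779% higher and 3.85% lower in HOMO CB, and 0.578% and 2.17% in HOMO CC. Between the populations, where 5.0% of all genes were called in HOMO and 3.81% in WT, Gab1, an adaptor that recruits phosphoinositide 3-kinase, was lower in CC in HOMO (-0.86, adjusted p = 0.0023) and in WT (-0.79, 0.00645). Plcg1, a relative of Plcg2, was lower in CC in HOMO (-0.32, 0.00254) and in WT (-0.27, 0.0138). Itpr1, a calcium channel opened by the product of Plcg2, was higher in CC in HOMO (0.24, 0.0211). No other gene of the 5 lists was called on summed counts in these comparisons.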

How the data were processed

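The authors deposited raw counts for 12 Omni-ATAC-seq libraries in 68689 peaks of 501 bp. The submitters' processing notes name FastQC, BWA, deepTools, R 4.2.1 and mm10 without roles. The sources used here do not give the peak caller, the counting tool, or how duplicates and the Tn5 offset were treated. If peaks were called on pooled reads, deeper libraries weigh more in which regions are listed.

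The members and gene lists were chosen with earlier results of these data known. Groups and replicate numbers came from the labels. Each peak went to the protein-coding gene span nearest to its midpoint, out of 21631 spans from RefSeq (GRCm38.p6), up to 50000 bp away. This gave 64044 peaks at 14267 genes. Counts per peak, and counts summed over a gene's peaks, were each fitted for all features with edgeR 4.0.16 (R 4.3.3, limma 3.58.1), using TMM factors and group means for the 12 libraries. The tests were robust quasi-likelihood F tests, two-sided. The filter filterByExpr dropped 0 peaks and 0 genes. A feature was called when its Benjamini-Hochberg adjusted p, over all peaks or all genes, was under 0.05. The common biological coefficient of variation was 0.142 for peaks and 0.0847 for gene sums. The standard error of a log2 fold change is its size divided by the root of F. Library totals of 6431354 to 45590454 counts set the precision.

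Peaks named with every library were those called, the strongest peak and gene-end peak of each gene, and the peak of smallest p for genotype or population. Some that the rule takes are given by range or count.

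Whether equal replicate numbers mark pairs was judged from each library's departure from its group mean. Between CB and CC of a genotype, the 6 equal-numbered pairs had correlations of 0.21 to 0.52 and the 12 other pairs -0.34 to 0.12, which meets the rule for pairs. The reported CC against CB fit has no block and so ignores this pairing, and the blocked fit is given beside it. Between HOMO and WT, the 6 equal-numbered pairs had -0.01 to 0.40 and the others -0.30 to 0.18, which does not. Libraries that differ in both genotype and population had 0.01 to 0.32 for equal numbers and -0.25 to 0.14 otherwise, so these ranges overlapped too. Alternatives were RLE factors, DESeq2 1.42.0, a mean count of 50 or more, the replicate block, each library left out, the pairs named in the report left out, and assignment within 10 kb. A further fit with log2 library total as a covariate was chosen after seeing the data. Further software was Python 3.11.15 with pandas 2.3.3, numpy 2.4.6 and matplotlib 3.10.9, and the R package data.table (version 1.17.8).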

Additional observations from a re-analysis of the deposited data

How the results depend on the processing

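RLE factors and the filter at a mean count of 50 or more moved no count of called peaks or genes by over 1.5 times, and no scaling moved the median of all peaks by over 0.1 on the log2 scale. The counts below are of called peaks among the 193 unless genes are named, and the percentages are the share of all peaks, or of all genes, called by the same fit. For HOMO against WT in CB (5, 4.63%), the count was 8 with DESeq2 (6.2%), 15 with the replicate block (13.2%), 8 without both HOMO libraries numbered 1 (7.14%), 3 without both WT libraries numbered 2 (2.42%), 3 for peaks within 10 kb (4.63%) and 15 with library total as a covariate (11.8%). For HOMO against WT in CC (2, 2.75%), it was 14 with the block (10.4%), 9 without the HOMO pair (6.47%), 1 without the WT pair (0.473%) and 10 with the covariate (8.42%). For CC against CB in HOMO (11, 7.22%), it was 43 with the block (22.2%), 7 without the HOMO pair (5.28%) and 22 with the covariate (13.1%). For CC against CB in WT (11, 5.43%), it was 50 with the block (22.1%), 19 without the HOMO pair (7.31%), 2 without the WT pair (0.767%) and 32 with the covariate (11.4%). Of the 9 genes on summed counts in CB (2, 7.06%), 1 was called without the HOMO pair (10.3%) and 0 without the WT pair (3.48%). In CC (1, 4.09%), DESeq2 called 3 (7.55%), the block 4 (16.5%), the fit without the HOMO pair 6 (10.4%) and the covariate 3 (12.4%). Between the populations (0 in each), the block called 3 in HOMO (22.1%) and 2 in WT (20.8%), and the covariate 1 in WT (8.71%). The share of all peaks called moved in the same direction as the count of these peaks under each of these alternatives but the 10 kb rule. On summed counts in CB without the HOMO pair it did not. There the count of genes fell from 2 to 1 while the share of all genes rose from 7.06% to 10.3%. The HOMO and WT libraries of one number were not shown to be pairs, and the cause of the higher counts was not tested.

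Leaving out 1 library at a time gave 0 to 7 peaks by genotype in CB, 0 to 7 in CC, 5 to 12 between populations in HOMO and 3 to 16 in WT. For genes it gave 0 to 2, 0 to 4, 0 to 0 and 0 to 1 in the same order, and 0 to 0 peaks and genes for the difference of effects. The matching shares of all peaks and genes called are not given, so these ranges cannot be set against the whole table. The summed Fyn signal in CC, not called, reversed with peaks within 10 kb, to -0.03 from a reported 0.02. With 3 libraries a group and the shallowest at 6431354 counts, small changes at weak peaks were not detectable.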
